A study of Mus musculus with 8 samples.

Results

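The stem cell transcription factor heptad (Tal1, Lyl1, Lmo2, Gata2, Runx1, Erg and Fli1) and 3 partner factors of stem cells (Meis1, Hlf and Mecom) were examined in LSCs of a CML mouse model, as the 10 genes with these symbols among the 15576 rows of the count table. All 10 passed the filter on low counts, as did 11937 genes in all. Bone marrow LSCs of CML mice left untreated (CML, 4 libraries) were compared with those of CML mice given 400 mg/kg of the tyrosine kinase inhibitor imatinib by gavage every other day for 4 weeks (CML-TKI, 4 libraries). Both groups are C57BL/6 by their labels and carry BCR-ABL×SCL-tTA, in which a control element of Scl drives the transactivator that turns on BCR-ABL once tetracycline is withdrawn. Scl is the older name of Tal1, so the element that drives the transactivator belongs to 1 of the 10 genes, and neither the transactivator nor the transgene is measured here. Dose and duration are those of the labels. The study's figure caption for its LSC RNA-seq gives a lower dose over 4 weeks, and its methods give both doses. That caption also states fewer replicates than the 4 libraries per group used here. Which dose these libraries received is thus not settled by the sources. Sorted cells are called LSCs as in the study, and their markers are given below. The animals' age and the number of animals behind a library are not given in the sources used here, so p-values measure the spread between these libraries, which may be technical.

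The heptad factors bind together at enhancers of blood stem and progenitor cells. Tal1 and its relative Lyl1 are basic helix-loop-helix proteins that bind E-boxes with an E-protein partner, Lmo2 is a LIM-only adaptor that does not bind DNA itself and bridges Tal1 or Lyl1 to the zinc finger factor Gata2 through Ldb1, Runx1 binds DNA and is stabilized there by its partner Cbfb, and Erg and Fli1 are close relatives of the ETS family. Meis1 is a homeodomain cofactor of Hox proteins, Hlf is a PAR bZIP factor and Mecom (Evi1) is a zinc finger factor, and all 3 are known from long-term repopulating stem cells. Several of these genes are controlled by the factors they encode, which is why sequence before their start sites is given first.

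RefSeq promoter windows of GRCm38.p6 (250 bases before to 50 after a start site) matched 8 of the 10 genes with 14 entries, and 5 short motifs of the factors' families were searched on both strands. GATAA was present in 4 of the 14 entries and in 25.4% of all 32851 promoter windows. The E-box CAGATG was present in 2 entries and in 17.2% of all windows, the RUNX motif TGTGGT in 2 and 16.8%, the ETS motif CCGGAA in 4 and 14.9%, and the MEIS motif TGACAG in 2 and 19.2%. No matches overlap each other in the windows printed below, where capitals mark matches on either strand and all lines read 5′ to 3′ on the gene's strand. A match is a description of these letters and not evidence of binding. Windows that held matches are shown for Tal1, Erg, Meis1 and Mecom, 4 of the genes with lower counts in every CML-TKI library, and for Lyl1 and Runx1, whose groups overlapped. Both Gata2 windows, Tal1 entry 2 and Erg entries 1 and 2 held no match, and the Hlf window held 1 ETS match. Also not printed, Runx1 entry 2 held an ETS match at -106 to -101 from its start site. Mecom entry 2 held a GATA match at -198 to -194 and a MEIS match at -86 to -81. The pieces lie at chr4:115056176-115056425 and chr4:115056426-115056455 (plus strand, Tal1), chr16:95459349-95459598 (minus strand, Erg), chr11:19018970-19019219 (minus strand, Meis1), chr3:30509760-30510009 (minus strand, Mecom), chr8:84701207-84701456 (plus strand, Lyl1) and chr16:92826025-92826054 (minus strand, Runx1). The Erg and Meis1 pieces lie wholly inside the gene spans given below, so their start sites are internal to those spans.
Tal1, before the start: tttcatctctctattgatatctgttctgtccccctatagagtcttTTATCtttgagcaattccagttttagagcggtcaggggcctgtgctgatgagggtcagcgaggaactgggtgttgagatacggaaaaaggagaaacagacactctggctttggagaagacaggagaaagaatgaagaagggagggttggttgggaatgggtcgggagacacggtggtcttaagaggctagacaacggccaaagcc
Tal1, after the start: gctgaacgagCATCTGggaggcggagatcc
Erg, entry 3: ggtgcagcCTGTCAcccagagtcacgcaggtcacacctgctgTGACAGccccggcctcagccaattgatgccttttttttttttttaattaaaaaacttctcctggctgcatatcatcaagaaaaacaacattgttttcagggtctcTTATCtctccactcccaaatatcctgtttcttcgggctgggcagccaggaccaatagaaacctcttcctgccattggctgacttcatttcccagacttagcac
Meis1: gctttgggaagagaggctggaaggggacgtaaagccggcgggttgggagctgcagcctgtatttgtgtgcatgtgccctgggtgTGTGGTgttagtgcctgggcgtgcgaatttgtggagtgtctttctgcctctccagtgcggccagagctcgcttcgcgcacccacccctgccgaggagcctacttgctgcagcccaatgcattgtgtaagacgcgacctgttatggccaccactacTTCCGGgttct
Mecom, entry 1: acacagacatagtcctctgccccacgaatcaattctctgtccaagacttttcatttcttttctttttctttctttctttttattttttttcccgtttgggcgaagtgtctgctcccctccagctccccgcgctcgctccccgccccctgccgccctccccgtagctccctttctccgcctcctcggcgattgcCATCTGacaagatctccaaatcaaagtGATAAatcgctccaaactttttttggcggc
Lyl1: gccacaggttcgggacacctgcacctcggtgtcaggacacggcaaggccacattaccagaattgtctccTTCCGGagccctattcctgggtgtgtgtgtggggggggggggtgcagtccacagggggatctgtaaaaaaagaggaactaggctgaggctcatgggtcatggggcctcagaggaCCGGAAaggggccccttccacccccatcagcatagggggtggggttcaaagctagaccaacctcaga
Runx1, entry 1, after the start: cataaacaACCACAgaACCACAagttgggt

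Counted from the start site, the Tal1 window held a GATA match at -205 to -201 and an E-box at 11 to 16. Erg entry 3 held MEIS matches at -242 to -237 and -208 to -203 and a GATA match at -103 to -99. Meis1 held a RUNX match at -166 to -161 and an ETS match at -11 to -6, and Mecom entry 1 an E-box at -57 to -52 and a GATA match at -30 to -26. Lyl1 held ETS matches at -181 to -176 and -67 to -62. In Runx1 2 RUNX matches lay 3′ of the start site of entry 1, at 29 to 34 and 37 to 42.

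CML libraries held 4939644 to 8620101 counts and CML-TKI libraries 1041552 to 5104268, CML-TKI 3 having the fewest. Levels are given as CPM, counts scaled to a library's TMM-adjusted total, and the floor of 3 counts equals 0.406 to 0.576 CPM in CML and 0.566, 0.924, 3.27 and 0.775 CPM in CML-TKI 1 to 4, floors that cover counting error only. 1 CML column bears the number 5, whereas the labels stop at 4, and it is used by the group in its name and called CML 5. The labels number 4 samples in each group, but the 4 CML-TKI samples repeat 1 description and the CML sample numbered 4 repeats that of sample 1, so the labels do not settle that each library is a separate sample. On the first principal component of all genes tested, which held 52.5% of the variance, the CML libraries lay between -74.4 and -69.3, CML-TKI 1 at -19.2 and CML-TKI 2, 3 and 4 at 118.8, 116.5 and 70.1, so CML-TKI 1 stood apart from the other CML-TKI libraries. The biological coefficient of variation was 28.04% among CML libraries (11.03% without CML 5) and 69.2% among CML-TKI libraries. The labels give a CD150-CD48+ gate for all 8 libraries, whereas Slamf1 (CD150) was at 28.8 to 37.5 CPM in CML and at 0.616 to 6.53 CPM in CML-TKI, and Cd48 at 3.84 to 6.36 CPM in CML and at 39.6 to 177 CPM in CML-TKI. The study's text gives the opposite gate, CD48-CD150+. At the RNA level the CML libraries thus go against the labelled gate and with that of the text for both markers, and the CML-TKI libraries go with the labelled gate and against that of the text. Whether both groups were sorted by 1 gate cannot be told from these values, and every difference below is between cells that differ in both markers. Of the other markers of the sort, Kit was at 759 to 1017 CPM in CML and at 193 to 289 CPM in CML-TKI, Ly6a (Sca1) at 33.0 to 38.2 and 1.55 to 44.0 CPM, and Flt3, by which cells were sorted out, at 15.6 to 17.1 and 7.70 to 62.8 CPM. Ly6a was at 44.0 CPM in CML-TKI 1 and at 9.54, 8.71 and 1.55 CPM in CML-TKI 2, 3 and 4, which lay below every CML library. It was not called on all 8 libraries (edgeR adjusted p = 0.373). It was called lower with limma-voom (adjusted p = 0.0257) and without CML-TKI 1 (edgeR adjusted p = 0.0117). In bulk libraries fewer cells of a type and less RNA per cell cannot be told apart.

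Of the 10 factors, 7 were lower in CML-TKI than in CML libraries by edgeR's quasi-likelihood test (adjusted p under 0.05) and 0 were higher, all 10 having a negative fitted log2 fold change. Across all genes tested, 3.93% were called lower and 6.29% higher. For 8 of the 10, every CML-TKI library lay below every CML library in CPM, an arrangement that 13.1% of all genes tested had, and none lay above in every library, as 10.3% of all genes did. Lmo2, Gata2, Erg, Tal1 and Fli1 of the heptad and Meis1 and Hlf of the partners fell, Mecom had no overlap between the groups without passing the threshold, and Lyl1 and Runx1 overlapped. The median log2 fold change was -1.76 over the 7 heptad genes and -3.36 over the 3 partners, against -0.00029 over all genes tested. The 10 factors were chosen with earlier results of these data known, so these contrasts with all genes are a description.

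**Figure D1:**
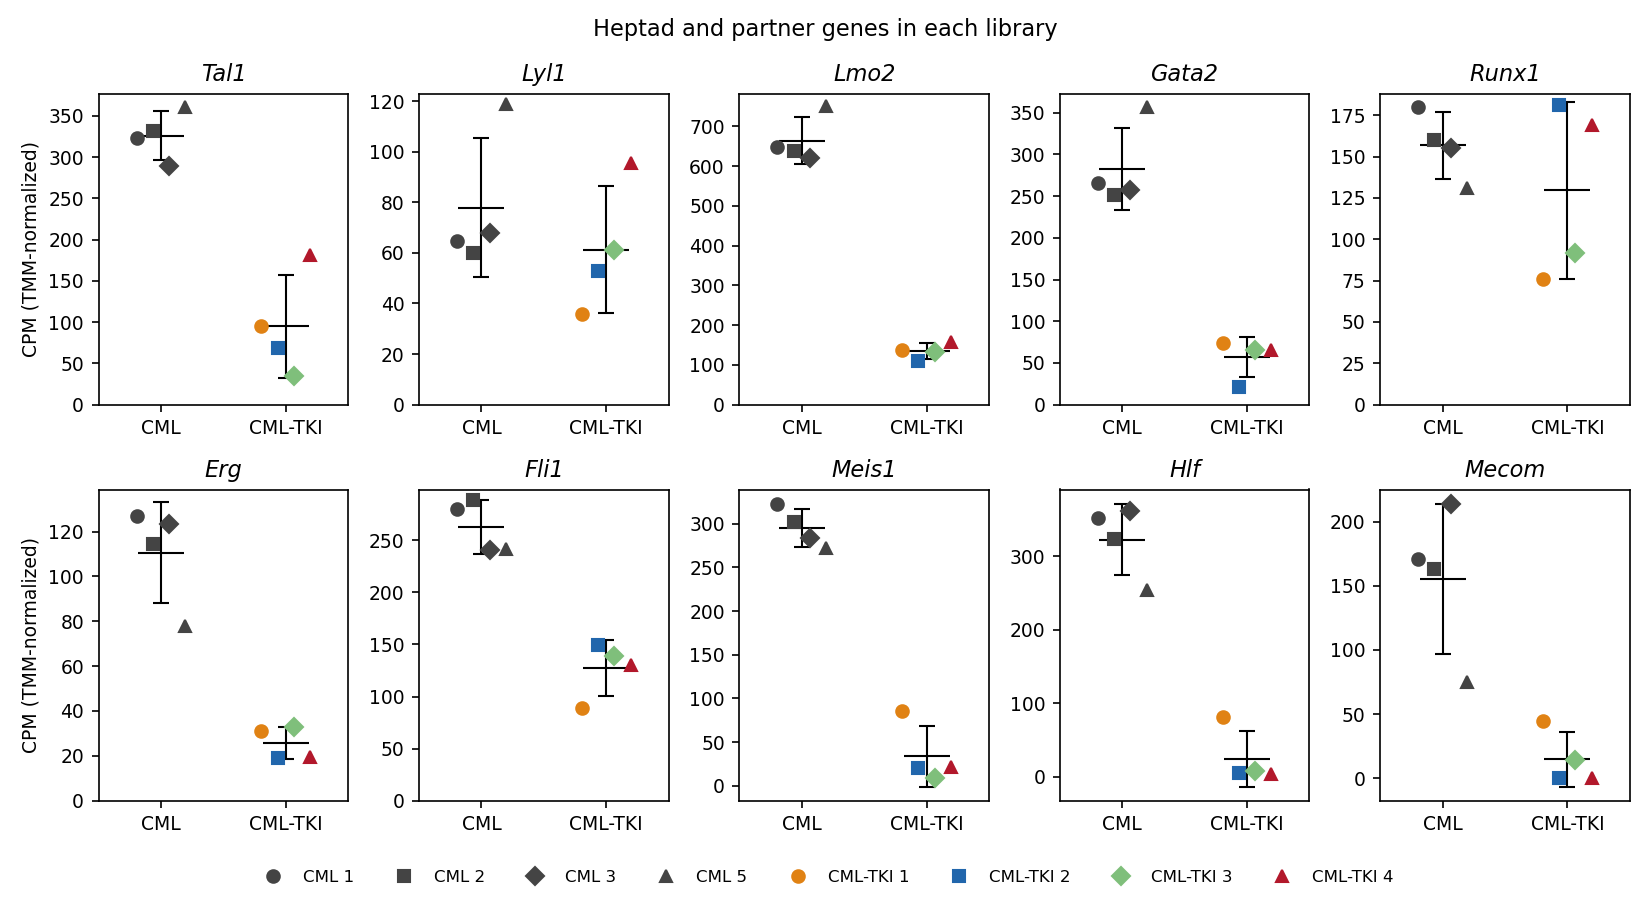
TMM-normalized CPM (linear axis) of the 10 genes in each of the 4 CML (grey) and 4 CML-TKI (coloured) libraries, with the mean ± SD of each group as a bar and whiskers. Lmo2 sits between 619.5 and 751 CPM in CML and between 109 and 157 CPM in CML-TKI, whereas the groups of Lyl1 and Runx1 overlap.

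Lmo2, the adaptor of the complex, had the highest mean level of the 10 per kilobase of exon in both groups. Its gene lies at chr2:103957903-103981878. Lmo2 was at 647, 638, 619.5 and 751 CPM in CML 1, 2, 3 and 5, and at 138, 109, 133 and 157 CPM in CML-TKI 1 to 4. All 4 CML-TKI libraries were close together and far below the CML libraries. The means were 664 ± 59.0 and 134 ± 19.7 CPM (SD, n = 4 each), a log2 fold change of -2.31 (SE 0.20, 95% interval -2.75 to -1.86, edgeR adjusted p = 5.41e-04). It was called lower under all 19 alternatives to the edgeR fit, with log2 fold changes between -2.45 and -2.22.

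Gata2, the GATA factor of stem and early progenitor cells, lies at chr6:88193891-88207032. CPM values of 266, 250.8, 258 and 356 were found in CML 1, 2, 3 and 5, and of 74.3, 21.6, 65.3 and 65.9 in CML-TKI 1 to 4. CML 5 was the highest of its group and CML-TKI 2 the lowest of its own, and the groups were far apart. Gata2 fell from 283 ± 49.5 to 56.8 ± 23.8 CPM (SD, n = 4), a log2 fold change of -2.32 (SE 0.36, 95% interval -3.13 to -1.51, edgeR adjusted p = 0.00418). The call held with any 1 library left out, with adjusted p between 0.00269 and 0.0177, and was lost with CML 1 to 3 summed (0.0558). It was also lost on libraries 1 to 3 of both groups with their numbers as a block (0.0593).

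Tal1, the helix-loop-helix factor needed to form the blood system, lies at chr4:115056426-115071755. In CML 1, 2, 3 and 5 it was at 323, 331, 289 and 361 CPM, and in CML-TKI 1 to 4 at 95.7, 69.0, 34.8 and 181 CPM. Its CML-TKI libraries were all below the CML libraries but differed among themselves, with CML-TKI 4 the highest and CML-TKI 3, at 32 counts, the lowest. Tal1 fell by 1.76 on the log2 scale (SE 0.41, 95% interval -2.69 to -0.84, edgeR adjusted p = 0.0263), from 326 ± 29.4 to 95.2 ± 62.5 CPM (SD, n = 4). The call was lost without CML 1 (adjusted p = 0.0712), CML 2 (0.0672), CML 3 (0.0586), CML 5 (0.0649) or CML-TKI 2 (0.0705), with log2 fold changes between -2.27 and -1.49 over all 8 libraries left out in turn. With CML libraries 1 to 3 summed to 1 library its adjusted p was 0.181.

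Lyl1, the relative of Tal1 that can take its place in adult stem cells, lies at chr8:84701423-84704716. It was at 64.8, 60.0, 68.0 and 119 CPM in CML 1, 2, 3 and 5, and at 35.7, 52.6, 61.0 and 95.4 CPM in CML-TKI 1 to 4. The groups overlapped, with CML-TKI 4 above 3 of the CML libraries. The log2 fold change was -0.35 (SE 0.34, 95% interval -1.11 to 0.41, edgeR adjusted p = 0.569), which holds a fall of up to 1.11 and a rise of up to 0.41 on the log2 scale. Without CML 5 it was -0.082.

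Runx1, the core binding factor from which many leukaemia fusions derive, lies at chr16:92601466-92826074. The CML libraries 1, 2, 3 and 5 held 180.1, 160.3, 155 and 131 CPM, and CML-TKI 1 to 4 held 76.2, 181, 91.5 and 169 CPM. CML-TKI 2 and 4 were within or above the CML range and CML-TKI 1 and 3 below it. Its log2 fold change was -0.27 (SE 0.30, 95% interval -0.94 to 0.40, edgeR adjusted p = 0.618), and it became 0.16 without CML-TKI 1 and 3 together, an alternative chosen after seeing the data. Counts per gene do not separate transcripts from the distal and proximal promoters of Runx1, nor the isoforms of Mecom.

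The ETS factors Erg and Fli1 both fell. Erg, at chr16:95359169-95586600, was at 127, 114, 123 and 77.7 CPM in CML 1, 2, 3 and 5 and at 30.9, 19.1, 32.7 and 19.6 CPM in CML-TKI 1 to 4. CML 5 held the least Erg of its group and was still above every CML-TKI library. The log2 fold change of Erg was -2.13 (SE 0.28, 95% interval -2.75 to -1.51, edgeR adjusted p = 0.00185), and its call held with any 1 library left out (highest adjusted p 0.0103) and was lost with CML 1 to 3 summed (0.0612). Fli1, at chr9:32422204-32543432, was at 280.5, 289, 240.4 and 241 CPM in CML and at 88.9, 149.9, 139 and 130.3 CPM in CML-TKI. Here CML-TKI 1 was the lowest library. Fli1 fell by 1.05 on the log2 scale (SE 0.22, 95% interval -1.53 to -0.57, edgeR adjusted p = 0.0148), and the call was lost without CML 1 (adjusted p = 0.0632) or CML 2 (0.0586), or with CML 1 to 3 summed (0.197). On libraries 1 to 3 of both groups the Fli1 call was lost with their numbers as a block (0.117) and without (0.0549).

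Meis1, Hlf and Mecom had the lowest CML-TKI counts of the 10 relative to CML, and in each CML-TKI 1 was the highest CML-TKI library. Meis1, at chr11:18880428-19019651, was at 323, 302, 284 and 272 CPM in CML 1, 2, 3 and 5 and at 85.5, 19.7, 8.71 and 21.7 CPM in CML-TKI 1 to 4. All CML-TKI libraries lay far below the CML libraries, CML-TKI 1 at 5.12 times the mean of the other 3. The log2 fold change of Meis1 was -3.07 (SE 0.58, 95% interval -4.36 to -1.78, edgeR adjusted p = 0.0102), and -4.07 (adjusted p = 7.68e-05) without CML-TKI 1. The call held with any 1 library left out (highest adjusted p 0.0333) and was lost with CML 1 to 3 summed (0.112). On libraries 1 to 3 of both groups it was lost with their numbers as a block (0.0704) and without (0.0755).

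Hlf, at chr11:90336535-90390917, was at 353, 324, 362 and 254 CPM in CML 1, 2, 3 and 5. In CML-TKI 1 it was at 81.5 CPM and in CML-TKI 2, 3 and 4 at 4.93, 7.62 and 4.39 CPM, the last 3 from 16, 7 and 17 counts. CML-TKI 1 thus held 14.4 times the mean of the other CML-TKI libraries, and the CML-TKI SD of 38.0 CPM exceeded the mean of 24.6 CPM. Hlf fell by 3.64 on the log2 scale (SE 0.89, 95% interval -5.63 to -1.65, edgeR adjusted p = 0.0303). Without CML-TKI 1 the log2 fold change was -5.94 (adjusted p = 1.79e-05). Leaving out any of the other 7 libraries lost the call, with adjusted p of 0.0875, 0.0797, 0.0761 and 0.0650 without CML 1, 2, 3 and 5 and of 0.0593, 0.0694 and 0.0532 without CML-TKI 2, 3 and 4. With CML 1 to 3 summed it was 0.267. On libraries 1 to 3 of both groups it was 0.0966 with their numbers as a block and 0.107 without.

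Mecom, at chr3:29951296-30509759, was at 171, 163, 214 and 74.8 CPM in CML 1, 2, 3 and 5. CML-TKI 1 and 3 held 44.9 and 14.2 CPM (238 and 13 counts), and CML-TKI 2 and 4 held 0 counts, which allows up to 0.924 and 0.775 CPM. The groups did not overlap, but the spread within CML-TKI was wide. The log2 fold change was -3.36 (SE 1.20, 95% interval -6.03 to -0.68) and did not pass the threshold (edgeR adjusted p = 0.109). Without CML-TKI 1 it was -6.09 (adjusted p = 0.00803).

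**Figure D2:**
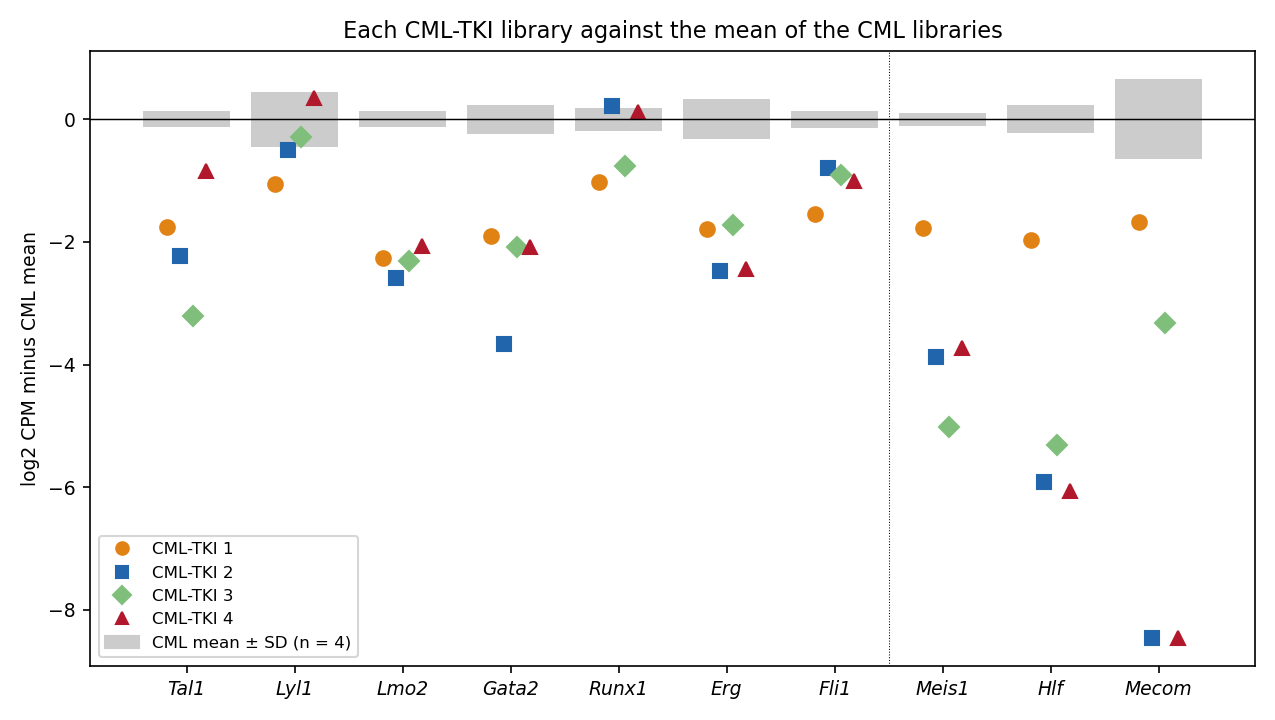
Difference in log2 CPM (prior count 2) between each CML-TKI library and the mean of the 4 CML libraries for the 10 genes, with the CML mean ± SD as a grey band. CML-TKI 1 (circles) is the highest CML-TKI library for Gata2, Meis1, Hlf and Mecom and the lowest for Lyl1, Runx1 and Fli1.

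Among the CML-TKI libraries, CML-TKI 1 was the highest for 4 of the 10 genes, Gata2, Meis1, Hlf and Mecom, and the lowest for 3, Lyl1, Runx1 and Fli1, where it held 0.512, 0.518 and 0.635 times the mean of the others. Only for Meis1 and Hlf was its gap to the nearest CML-TKI library large against the range of the group (Dixon's criterion). Summed over the heptad, CML-TKI 1 was at 539.8 CPM and CML-TKI 2, 3 and 4 at 602, 557 and 819 CPM, against 1753 to 2037 CPM in CML. Summed over Meis1, Hlf and Mecom it was at 212 CPM and the other CML-TKI libraries at 24.6, 30.5 and 26.1 CPM, against 601 to 860 CPM in CML. The heptad sum of CML-TKI 1 was thus close to that of CML-TKI 3, while its partner sum was the highest of its group. The sum of granulocyte markers ran the other way, at 1434 CPM in CML-TKI 1 and 7920, 7579 and 8309 CPM in CML-TKI 2, 3 and 4, against 132 to 219 CPM in CML, and their part in the result was not tested.

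Per kilobase of merged exon (GENCODE M21, GRCm38), the mean levels in CML libraries ran from Lmo2 at 351 ± 31.2 CPM per kb (SD, n = 4) through Fli1 (79.2 ± 7.67), Gata2 (76.7 ± 13.4), Tal1 (76.1 ± 6.86), Hlf (57.3 ± 8.67), Lyl1 (43.3 ± 15.3), Meis1 (39.1 ± 2.93), Erg (31.9 ± 6.498) and Mecom (24.02 ± 9.01) to Runx1 (21.03 ± 2.69). Neighbours differed by less than the larger of their SDs from Fli1 to Tal1, from Hlf to Meis1 and from Erg to Runx1. In CML-TKI libraries Lmo2 was still first at 70.9 ± 10.4 CPM per kb, followed by Fli1 (38.3 ± 8.06), Lyl1 (34.0 ± 14.0), Tal1 (22.2 ± 14.6), Runx1 (17.4 ± 7.15), Gata2 (15.4 ± 6.47), Erg (7.38 ± 2.08), Meis1 (4.49 ± 4.61), Hlf (4.36 ± 6.73) and Mecom (2.28 ± 3.27). Here neighbours were within the larger SD from Fli1 to Gata2 and from Erg to Mecom. Runx1 ranked 10 in CML and 5 in CML-TKI, and Hlf moved from rank 5 to rank 9.

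The summed heptad level was 671, 657, 631 and 756 CPM per kb in CML 1, 2, 3 and 5 and 181, 184, 194 and 264 CPM per kb in CML-TKI 1 to 4. Within that sum Lmo2 made up 51.6% ± 0.64 in CML and 34.8% ± 4.29 in CML-TKI (SD, n = 4). Lyl1 made up 6.29% ± 1.67 and 16.1% ± 3.86, Fli1 11.7% ± 1.59 and 18.99% ± 4.94, and Runx1 3.13% ± 0.55 and 8.45% ± 3.42. Each of these 4 shares had no overlap between the groups. Shares of a sum are tied to each other, so a fall of Lmo2 by itself raises the other shares. In CPM the groups of Lyl1 and Runx1 overlapped and Fli1 fell. No like share over all genes was computed. The shares of Gata2 (11.2% ± 1.07 and 7.57% ± 3.42), Tal1 (11.2% ± 0.44 and 10.3% ± 5.05) and Erg (4.77% ± 1.23 and 3.74% ± 1.39) overlapped.

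**Figure D3:**
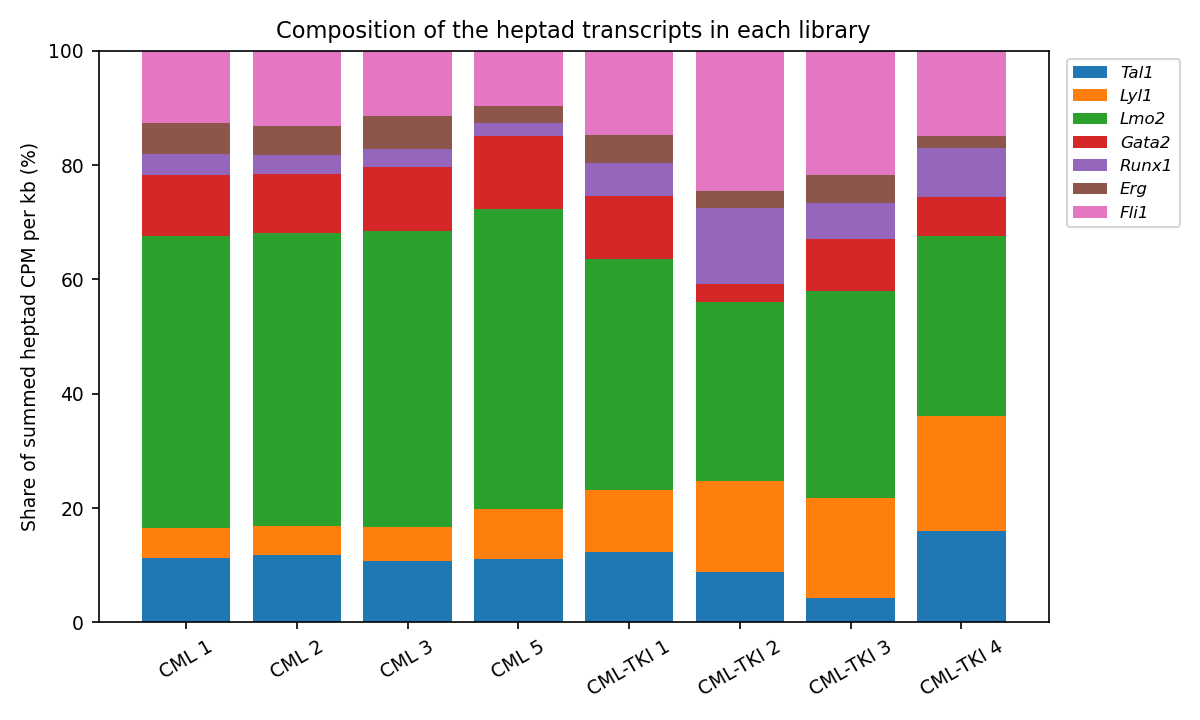
Share (%) of each heptad gene in the summed heptad CPM per kb of exon, as stacked bars for each library. Lmo2 takes 51.0% to 52.4% in the CML libraries and 31.3% to 40.3% in the CML-TKI libraries.

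Whether close relatives kept their proportion was compared for 3 pairs by the log2 ratio of CPM in each library and tested by exact permutation (two-sided, 70 relabelings of the 8 libraries), whose smallest p is 0.0286. The Tal1 to Lyl1 ratio was 2.31, 2.46, 2.08 and 1.598 in CML 1, 2, 3 and 5 and 1.41, 0.39, -0.80 and 0.92 in CML-TKI 1 to 4. Every CML-TKI library was below every CML library, a difference of -1.63 (exact permutation p = 0.0286, 0.0857 adjusted over the 3 pairs). For Erg to Fli1 the ratio was -1.27 ± 0.29 in CML and -2.31 ± 0.65 in CML-TKI (SD, n = 4), a difference of -1.04 (exact permutation p = 0.0571, adjusted 0.0857), with CML-TKI 1 at -1.51 inside the CML range. Gata2 to Gata1, the erythroid and megakaryocytic GATA factor, was 2.09 ± 0.21 in CML and 1.28 ± 0.74 in CML-TKI (SD, n = 4), a difference of -0.82 (exact permutation p = 0.0857, adjusted 0.0857), and CML-TKI 1 and 2 were at 1.87 and 1.96. No adjusted p of the 3 pairs was under 0.05 at the prior count of 2, whereas at a prior count of 5 those of Tal1 to Lyl1 and Gata2 to Gata1 were 0.0429 by the exact permutation test. A pair at the smallest p can have an adjusted p under 0.05 only if another pair is at it too. The adjusted value of Tal1 to Lyl1 alone therefore cannot decide whether its ratio changed.

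**Figure D4:**
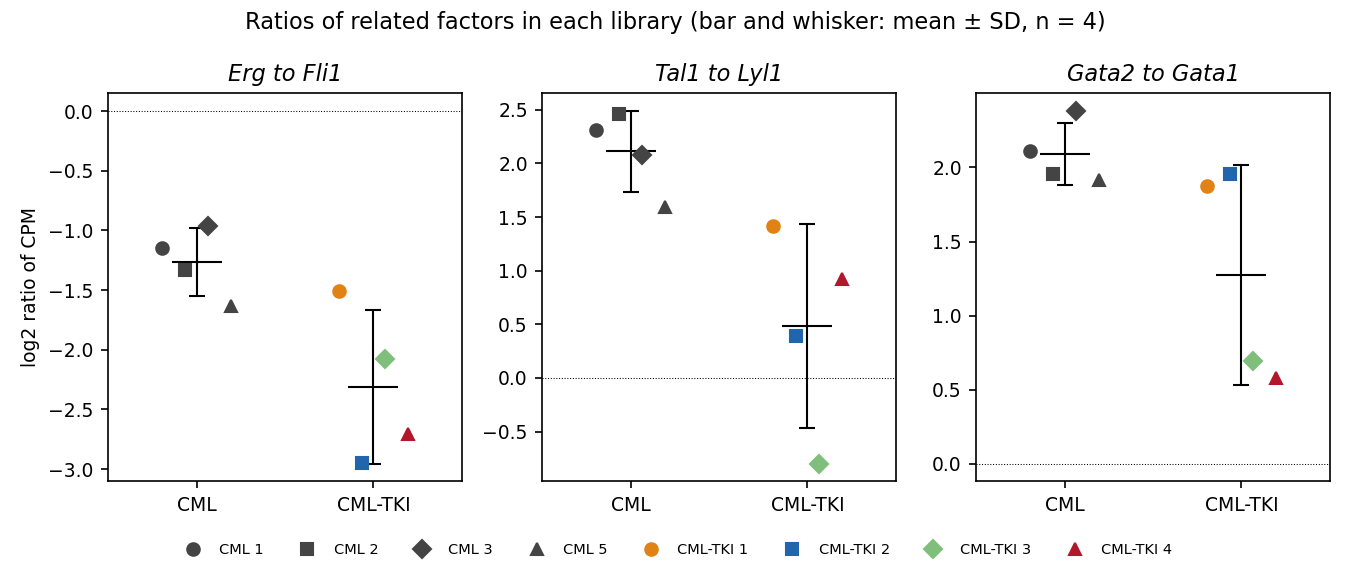
log2 ratio of CPM for Erg to Fli1, Tal1 to Lyl1 and Gata2 to Gata1 in each library, with the mean ± SD of each group as a bar and whiskers. For Tal1 to Lyl1 the highest CML-TKI value, 1.41, lies below the lowest CML value, 1.598.

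Genes of proteins that act with the 10 factors were taken as a list of 13 complex partners. Of these, 2 were called lower and 0 higher (Cbfb had an unadjusted p of 0.0443 by edgeR), 4 had every CML-TKI library below every CML library, and their median log2 fold change was -0.60. Ssbp2, which stabilizes Ldb1, was at 65.3 to 73.0 CPM in CML and at 16.9 to 33.2 CPM in CML-TKI, a log2 fold change of -1.38 (SE 0.26, edgeR adjusted p = 0.00971). Ldb1 itself, which links Lmo2 molecules, had overlapping groups and a log2 fold change of -0.46 (SE 0.32, adjusted p = 0.401), and is named outside the rule for named genes, after its value was seen. Neither the corepressor Cbfa2t3 (-0.85, adjusted p = 0.0651) nor the E-protein Tcf12 (0.22, adjusted p = 0.766) passed the threshold with edgeR, but Cbfa2t3 was called lower with DESeq2 (0.0107), limma-voom (0.00934) and totals without Rn45s (0.0339). Cbfb, the subunit that raises the DNA affinity of Runx1 without binding DNA itself, was at 0.62 (adjusted p = 0.181) and at an adjusted p of 0.0223 without CML-TKI 1.

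Among 14 family relatives of the 10 factors, 11 were tested, of which 3 were called lower and 2 higher, with a median log2 fold change of -0.87. Etv6, an ETS factor of stem cells, fell from 508 ± 72.9 to 221 ± 21.95 CPM (SD, n = 4; log2 fold change -1.20, SE 0.19, edgeR adjusted p = 0.00499). Prdm16, the relative of Mecom, was at 54.8 to 64.5 CPM in CML and at 2.18 to 19.2 CPM in CML-TKI (-2.52, SE 0.57, adjusted p = 0.0213), and Gata3 was at 8.74 to 10.96 and 1.23 to 2.45 CPM (-2.22, SE 0.51, adjusted p = 0.0247). Both calls were lost without any 1 of the CML libraries, with adjusted p up to 0.0628 for Prdm16 and 0.118 for Gata3. In the other direction Lmo4, the relative of Lmo2, rose from 20.8 to 26.6 CPM in CML to 49.6 to 69.9 CPM in CML-TKI (1.40, SE 0.23, edgeR adjusted p = 0.00573). Nfil3, a bZIP factor related to Hlf, rose from 0.959 to 3.28 CPM to 21.3 to 44.6 CPM (3.66, SE 0.50, edgeR adjusted p = 0.0022). Gata1 (-1.32, adjusted p = 0.155), Runx2 (-0.87, adjusted p = 0.0534) and Ets1 (1.57, adjusted p = 0.116) did not pass with edgeR. Runx2 was called lower with DESeq2 (adjusted p = 0.00685), limma-voom (0.0497) and totals without Rn45s (0.0292), Gata1 lower with limma-voom (0.0480), and Ets1 higher with DESeq2 (0.0469) and without CML-TKI 2 (0.0113).

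Known targets of the heptad formed a list of 10, all tested, of which 3 were called lower and 2 higher, and 7 had every CML-TKI library below and 2 above the CML libraries. The list's median log2 fold change was -2.17. Kit, the stem cell factor receptor, fell by 1.92 on the log2 scale (SE 0.21, edgeR adjusted p = 8.70e-04), and the cells were sorted by its protein. Tek, the angiopoietin receptor Tie2, was at 57.4 to 94.1 CPM in CML and at 12.8, 0, 6.53 and 5.43 CPM in CML-TKI 1 to 4 (-3.55, SE 0.77, adjusted p = 0.0184), and Eng, the TGF-beta coreceptor endoglin, at 149.8 to 217 and 4.62 to 53.8 CPM (-2.48, SE 0.56, adjusted p = 0.0215). The Tek call was lost without CML 1, 2 or 3 (adjusted p 0.0550 to 0.0586) and that of Eng without any 1 CML library or CML-TKI 3 (0.0525 to 0.0631). Gfi1, a repressor of granulocytic and stem cells, rose from 2.49 to 8.88 CPM to 20.4 to 81.7 CPM (3.47, SE 0.55, edgeR adjusted p = 0.00435). Spi1 (PU.1), the myeloid ETS factor, rose from 13.4 to 29.8 CPM to 39.6 to 117 CPM (1.83, SE 0.38, adjusted p = 0.0156), a call lost without CML 1, 2 or 3 (adjusted p 0.0562 to 0.0622). Gfi1b (-2.42, adjusted p = 0.0914) and Cd34 (-0.95, adjusted p = 0.0718) did not pass with edgeR on all 8 libraries. Gfi1b was called lower with DESeq2 (0.0228), limma-voom (0.0251) and without CML-TKI 2 (0.0161), and Cd34 with DESeq2 (0.0134), limma-voom (0.0326) and without CML-TKI 4 (0.0113).

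**Figure D5:**
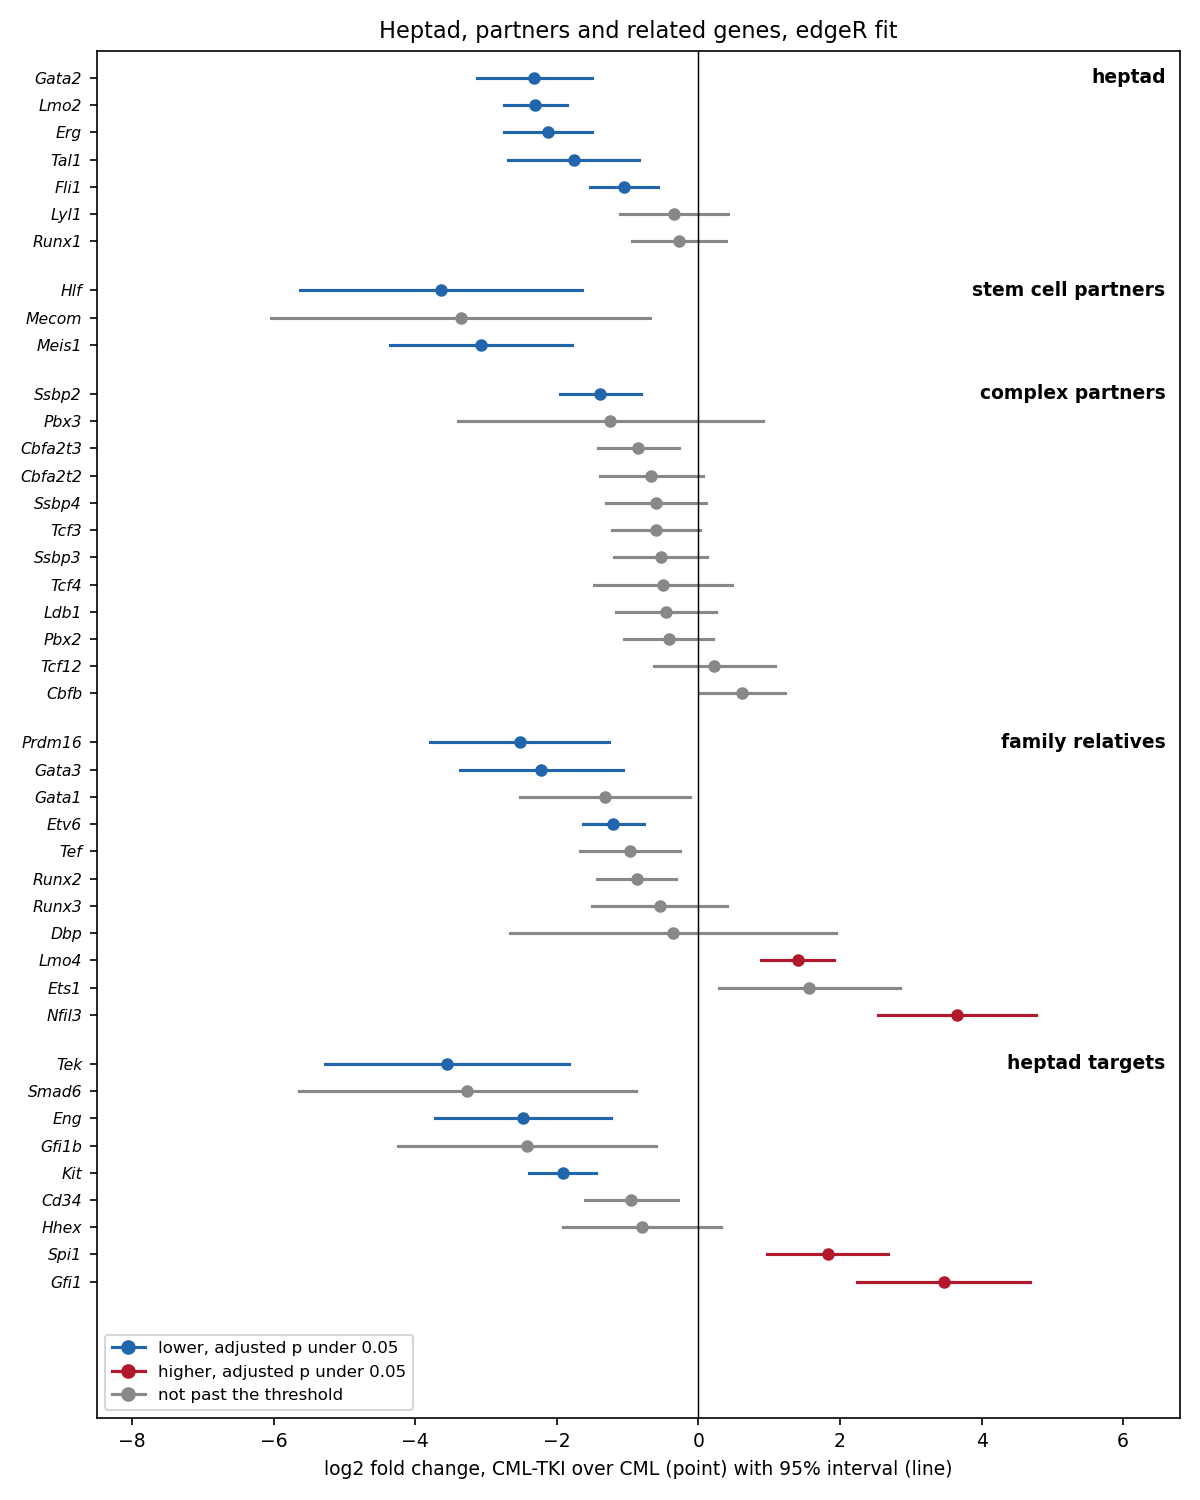
Fitted log2 fold change of CML-TKI over CML (points) with 95% intervals (lines) for the genes tested of the heptad, the stem cell partners and 3 related lists (2 genes are not shown), coloured by the call at an adjusted p of 0.05. In the heptad 5 of 7 genes are called lower, and the intervals of Lyl1 and Runx1 span 0.

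Myeloid commitment factors moved the other way. Of 7 listed genes 6 were tested and called higher, and 6 had every CML-TKI library above every CML library, with a median log2 fold change of 3.76. Irf8, the monocyte lineage factor, was at 2.68 to 8.74 CPM in CML and at 70.6, 316, 244 and 354 CPM in CML-TKI 1 to 4 (5.26, SE 0.57, edgeR adjusted p = 8.70e-04). Cebpa, the granulocytic C/EBP factor, was at 6.09 to 12.8 CPM in CML and at 30.6, 122, 113 and 192 CPM in CML-TKI 1 to 4 (3.83, SE 0.54, adjusted p = 0.00264). CML-TKI 1 was the lowest CML-TKI library for both. Klf4 (3.35), Cebpd (3.70), Cebpb (2.79) and Cebpe (4.61) had adjusted p of 0.00181, 0.00366, 0.011 and 0.0164, and Cebpe lost its call without CML 1, 2 or 3 (0.0536 to 0.0571).

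Marker lists of other blood and vessel cells were compared in the same way, although the labelled Lin-Sca1+cKit+Flt3- sort would remove mature lineage cells. Of 10 granulocyte markers 9 were called higher, and of 7 monocyte and macrophage markers 7 were called higher, against 6.29% of all genes tested. In 7 of each list every CML-TKI library lay above every CML library, as in 10.3% of all genes tested. The granulocyte marker Ltf was not called (2.37, edgeR adjusted p = 0.101), with CML-TKI 1, at 7.92 CPM, below every CML library. Camp and S100a8 were called higher although their groups overlapped. The monocyte and macrophage sum was at 14.2 to 27.8 CPM in CML and at 616, 2939, 2337 and 1863 CPM in CML-TKI 1 to 4. Mpo, the granule enzyme, was the most abundant granulocyte marker in CML-TKI, at 2.68 to 25.7 CPM in CML and 690.4 to 4608 CPM in CML-TKI. Of 7 megakaryocyte markers, a lineage in which Gata2, Fli1, Tal1 and Runx1 also act, 2 were called lower, Itga2b (-2.01, adjusted p = 0.0263) and Gp9 (-3.27, adjusted p = 0.00589), and the list's sum was at 1216 to 1456 CPM in CML and at 224, 51.7, 117 and 589.5 CPM in CML-TKI 1 to 4. Itga2b lost its call without any 1 CML library or CML-TKI 3 (adjusted p 0.0513 to 0.0698). Vwf, the most abundant marker of the list in CML, was at -2.93 (edgeR adjusted p = 0.0562). It was called lower with DESeq2 (0.00126), limma-voom (0.00136) and without CML-TKI 2 or 4 (0.0323 to 0.0361). Pf4, at -2.54 (edgeR adjusted p = 0.137), was called lower with DESeq2 (0.0454), limma-voom (0.0413) and without CML-TKI 4 (0.00457), whereas Ppbp was at 1.93 (adjusted p = 0.387). Tal1 was highest in the same CML-TKI library, CML-TKI 4, as that sum. Of 6 endothelial markers tested, 3 were called lower, the list's sum was at 321 to 597 CPM in CML and 63.4 to 125 CPM in CML-TKI, and Sox17 and Cldn5 were at 0 in all CML-TKI libraries, where in CML Sox17 was at 0 to 0.546 CPM and Cldn5 at 0.767 to 26.8 CPM. The called endothelial markers were Cdh5, Tie1 and Egfl7, of which Tie1 (-3.60, adjusted p = 0.0273) and Egfl7 (-2.69, adjusted p = 0.0361) lost their calls in 6 and 7 of 8 fits that left out 1 library, with adjusted p up to 0.0754 and 0.107. Pecam1, which made up most of the sum in 3 of the CML-TKI libraries, was at 53.0 to 76.2 CPM in CML and 33.2 to 73.9 CPM in CML-TKI (-0.037, adjusted p = 0.954). Of 7 erythroid markers tested 1, Tfrc (1.84, adjusted p = 0.00847), was called higher, and the sum was at 229 to 315 CPM in CML and at 246, 361, 41728 and 1019 CPM in CML-TKI 1 to 4, the globin Hba-a1 alone reaching 19496 CPM in CML-TKI 3. Hba-a1 (edgeR adjusted p = 0.0503) was called higher with limma-voom (0.0398), the filter at 50 counts (0.0478) and without CML-TKI 1, 2 or 4 (0.0141 to 0.0487). Hbb-b1 (edgeR adjusted p = 0.0616) was called higher without CML-TKI 1 or 2 (0.0183 to 0.0492). Lymphoid markers summed to 0.384 to 1.91 CPM in CML and 7.55 to 168 CPM in CML-TKI, none of the 7 passed the filter, and Cd3e, Cd3g and Dntt were at 0 in all CML libraries, Cd3g also in CML-TKI 1 to 3 and Dntt in CML-TKI 2 and 3. The part of these marker lists in the results on the 10 factors was not tested.

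The genes whose pattern over the 8 libraries was most like the mean log2 CPM of the heptad, among 9997 genes outside all lists whose mean log2 CPM reached 3, were Pml, Zfp36l2, Adipor2, St14 and Txnip, with Pearson r of 0.994, 0.994, 0.993, 0.986 and 0.984. The libraries fall into 2 groups, so r over 8 libraries mostly holds the difference between the groups, and 208 genes had an r over 0.9. Zfp36l2, which encodes an RNA-binding protein that promotes mRNA decay, was at 921, 877, 924 and 1056 CPM in CML and at 259, 261, 247 and 329 CPM in CML-TKI, with CML 5 and CML-TKI 4 highest as for the summed heptad level.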

How the data were processed

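Bulk RNA-seq libraries of 4 CML and 4 CML-TKI samples were analysed. RNA was extracted by the authors (RNeasy Plus mini kit), turned into Nextera XT libraries, aligned to mm10 (STAR 2.6.1d) and quantified against RefSeq transcripts (Partek 8.0), and the deposited values are unnormalized estimated counts of genes, whose use of strand or of shared reads is not stated. After rounding, edgeR 4.0.16 (R 4.3.3) was run with TMM scaling, a filterByExpr filter at a count of 10 and a total of 15, and the robust quasi-likelihood test, with Benjamini-Hochberg adjustment over 11937 genes and a threshold of 0.05. The SE was obtained from the log2 fold change and F, and log2 CPM uses a prior count of 2. Total counts were 1041552 to 8620101 per library. CML 1 to 3 differed from each other by more than counting error (chi-square 5.12 per degree of freedom), a comparison that covers counting error only and does not tell repeats of 1 sample from separate samples. Gene positions are from RefSeq on GRCm38.p6, the assembly of mm10.

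The 10 factors and the gene lists were chosen with earlier results of these data known. Named besides the 10 were, from each related list, every gene past the threshold and at most 3 others with the highest mean CPM (2 of these genes are not reported here but stay in the list counts), from each marker list at most 4 with the highest mean CPM, the 5 sort markers Slamf1, Cd48, Kit, Ly6a and Flt3, and the 5 genes most like the heptad mean. Ldb1, Ltf, Camp, Ppbp, Cdh5, Sox17, Cldn5, Cd3e, Cd3g and Dntt were named after their values were seen. Alternatives were DESeq2 1.42.0, limma-voom (limma 3.58.1), other scalings, filters and library sets.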

Additional observations from a re-analysis of the deposited data

Results flagged for a closer look

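Within each group of 4 libraries, the gap of the highest or lowest library to its neighbour was compared with the group's range by Dixon's critical value, which chance exceeds in about 1 in 20 groups. Of 28 groups of values examined, 6 exceeded it. Meis1 at 85.5 CPM and Hlf at 81.5 CPM in CML-TKI 1 were far above the other CML-TKI libraries. Gata2 at 21.6 CPM in CML-TKI 2 was far below the others. In CML 5, Lyl1 at 119 CPM and Gata2 at 356 CPM were far above the other CML libraries. The summed heptad level of 264 CPM per kb in CML-TKI 4 was far above that of the other CML-TKI libraries.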

How the results depend on the processing

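Of 190 values of the 10 factors under 19 alternatives, 159 kept their direction and side of the threshold, 27 lost the call, 3 gained it and 1 reversed. Lmo2 was called lower in all 19, Erg in 18, Gata2 in 17, Meis1 in 16, Fli1 in 14, Tal1 in 13, Hlf in 9 and Mecom in 3, and Lyl1 and Runx1 in 0. Mecom was called with limma-voom, without CML-TKI 1 and without CML-TKI 1 and 3.

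Counts of genes lower and higher were 469 and 751 by edgeR, 1086 and 1334 by DESeq2, and 1300 and 1244 by limma-voom. With 1 library left out they ranged from 141 to 1333 lower and from 364 to 1171 higher, with 4 to 8 of the 10 factors called. The highest counts came without CML-TKI 1 (1333 and 1171, 8 factors) and the lowest without CML 1 (141 and 364, 4 factors). They were 171 and 381 without CML 2 (4 factors), 164 and 406 without CML 3 (5 factors) and 257 and 549 without CML 5 (5 factors). Without CML-TKI 1 and 3 they were 1957 and 1305, and with CML 1 to 3 summed 20 and 102, with 1 factor called, and of the called genes named from the related lists and the commitment factors only Kit, Irf8 and Klf4 kept their call. Correlations of same-numbered deviations were -0.022, 0.15 and 0.091 for numbers 1, 2 and 3. The highest with another number were 0.057, -0.073 and 0.083, so these values do not settle whether the numbers pair the libraries. The fit with the replicate block on libraries 1 to 3 gave 43 and 150 with 3 factors called (Lmo2, Erg and Tal1), and the same libraries without the block, added after seeing the data like the removal of CML-TKI 1 and 3, gave 189 and 400 with 4 (also Gata2). Ssbp2 (edgeR adjusted p = 0.114), Lmo4 (0.0987), Etv6 (0.0539), Nfil3 (0.0520), Cebpb (0.0570) and Cebpd (0.0566) lost their calls with the block and kept them without it. Gata3, Prdm16, Eng, Spi1 and Tek lost theirs either way. Scaling to totals without Rn45s gave 593 lower and 603 higher genes and a median over all genes of -0.14 (log2), and scaling to totals gave 363 and 679. Among changes of direction with no call, Runx1 was at 0.16 without CML-TKI 1 and 3. With 1 library left out Tcf12 ranged from -0.21 to 0.43, Flt3 from -0.34 to 0.96, Pecam1 from -0.18 to 0.16 and Car1 from -3.35 to 0.27. Of these fits only that of Car1 without CML-TKI 4 gave a call, as lower (edgeR adjusted p = 0.0161). Tcf12 was at -0.15 with limma-voom, -0.12 with the block, -0.21 without CML-TKI 1 and -0.24 without CML-TKI 1 and 3. Flt3 was at -0.37 with the block, -0.30 without it on libraries 1 to 3 and -0.34 without CML-TKI 4. Pecam1 was at 0.095 without CML 3, 0.16 without CML-TKI 1, 0.0065 with CML 1 to 3 summed and 0.17 without CML-TKI 1 and 3, and Car1 at 0.22, 0.27 and 0.22 without CML-TKI 1, 2 and 3 and 0.72 without CML-TKI 1 and 3. At a prior count of 5 the ratio differences of Tal1 to Lyl1 (-1.62) and Gata2 to Gata1 (-0.84) reached an adjusted exact permutation p of 0.0429. With 1 library left out the ratio differences ranged from -1.94 to -1.20 for Tal1 to Lyl1, -1.31 to -0.83 for Erg to Fli1 and -1.04 to -0.58 for Gata2 to Gata1. The causes were not tested. Depth limits low values most in CML-TKI 3, where 3 counts are 3.27 CPM.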
